A study of Mus musculus with 2 samples.

Results

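The genes of oxidative phosphorylation were followed across the cell classes of the mouse locus coeruleus (LC), the noradrenergic nucleus of the dorsal pons. They are the 111 of 32285 genes in the count matrices whose symbols start with mt-Nd, mt-Co, mt-Atp, mt-Cytb, Nduf, Uqcr, Atp5 or Sdh, or are Cox4 to Cox8 with any suffix. The rule uses names and no measured value, and the set was proposed with earlier results of these data known. All but Ndufb1-ps, a noncoding transcript in the GENCODE annotation, are protein coding. The mitochondrial genome encodes 13 of them and nuclear chromosomes encode 98. By name the nuclear-encoded members belong to complex I (47), complex II (8), complex III (8), complex IV (18) and complex V (17), and the mitochondrial-encoded ones to complexes I (7), III (1), IV (3) and V (2). Of the nuclear-encoded members 12 are assembly factors, which help build a complex without staying in it.

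Complexes I to IV of the inner mitochondrial membrane pass electrons from NADH and succinate to oxygen, and complexes I, III and IV pump protons as they do so. Complex V, the ATP synthase, lets the protons flow back and makes ATP. Complex II is built from nuclear genes alone, while the other complexes join subunits made inside mitochondria with subunits imported from the cytosol, so their supply depends on 2 separate genomes. In neurons most of this ATP is spent on ion pumping and synaptic transmission.

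Both libraries, batch 1 and batch 2 (library 1 and library 2 below), came from the LC of C57BL/6N mice, wild type in genotype, female and male, at 3 to 4 weeks of age. No treatment was applied, so the comparisons run between cell classes inside each library and, side by side, between the libraries. The labels describe papain-dissociated cells fixed in methanol and also sorted nuclei in Chromium droplets, without saying which library held which, and the word cell stands for either below. The number of mice and any pooling are not given. The p-values thus rest only on how class differences vary between these 2 libraries, pooled in part over all genes tested, a spread that may be technical.

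Library 1 had 304 barcodes with 5600693 unique molecular identifiers (UMIs, 1 per captured RNA molecule), and library 2 had 2796 barcodes with 6895380. The median was 11010 UMIs per barcode in library 1 and 1517 in library 2, and the libraries shared 0 barcodes. After filtering, 294 and 2677 cells remained, 2971 in all, against 2578 cells stated for the study, whose filter is not given. Classes were built from cell type markers only, so no oxidative phosphorylation gene took part in them, and a class is called "X-like" from those markers. They were noradrenergic-like (12 and 78 cells, 8 of 8 markers at 10 CPM or more, CPM being UMIs per 1000000 UMIs of the summed class), mesencephalic trigeminal-like (11 and 50; 5 of 7), excitatory-like (31 and 163; 3 of 8), inhibitory-like (30 and 184; 6 of 6), cerebellar granule-like (36 and 47; 7 of 7) and unnamed neurons (80 and 706). Non-neuronal classes were oligodendrocyte-like (38 and 738), astrocyte-like (15 and 286), oligodendrocyte precursor-like (11 and 88), ependymal-like (19 and 103) and vascular or blood-like cells (10 and 198). Microglia or macrophage-like cells (1 and 36) were too few to compare. Trigeminal-like cells stand for the proprioceptive neurons of the jaw muscles, whose large cell bodies lie beside the LC.

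Levels below are CPM of a gene or of a set of genes in a class and library. Of the 111 members 110 had a UMI. Members with fewer than 20 UMIs in all cells were Cox8b (1), Cox6a2 (5), Cox4i2 (8), Cox6b2 (10) and Cox7a1 (12), all of them tissue isoforms of complex IV. The testis isoform gene Cox8c had 0 of 11962951 UMIs, which allows up to 0.251 CPM. In all 32 nuclear-encoded members overlap a gene on the opposite strand, and whether counting used the strand is not given in the sources used here.

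Promoters of members that the results below turn on are shown first. RefSeq promoters (GRCm38.p6, 250 bases before to 50 after the transcription start) were found for 79 of the 98 nuclear-encoded members. The motif of nuclear respiratory factor 1 (NRF-1), a classical activator of respiratory chain genes, was searched as GCGCA and GCGC with any base between them and occurred on either strand in 21 of the 79 (26.6%), against 4.60% of 32851 promoters. CCGGAAG, the core of ETS family sites, occurred in 22 (27.8%, against 8.86%), and AANATGGC, a YY1 site, in 19 (24.1%, against 6.05%). CCAAT occurred in 35 (44.3%, against 37.4%) and ACGTG, the core of hypoxia response elements, in 18 (22.8%, against 19.6%). Matches to different motifs were counted separately even where they shared bases, and a match describes letters, not binding. The promoter of Cox6a1, a complex IV subunit that was high in trigeminal-like cells, lies at chr5:115348909-115349208 on the minus strand and has 2 matches to the NRF-1 motif in capitals. That of Atp5b, the catalytic beta subunit of complex V, lies at chr10:128083057-128083356 on the plus strand and has 5 CCAAT matches in capitals, 1 of them on the other strand. That of Sdhaf4, an assembly factor of complex II that was high in noradrenergic-like cells, lies at chr1:24005591-24005890 on the minus strand and has 1 match to the NRF-1 motif in capitals, read on the other strand.
Cox6a1: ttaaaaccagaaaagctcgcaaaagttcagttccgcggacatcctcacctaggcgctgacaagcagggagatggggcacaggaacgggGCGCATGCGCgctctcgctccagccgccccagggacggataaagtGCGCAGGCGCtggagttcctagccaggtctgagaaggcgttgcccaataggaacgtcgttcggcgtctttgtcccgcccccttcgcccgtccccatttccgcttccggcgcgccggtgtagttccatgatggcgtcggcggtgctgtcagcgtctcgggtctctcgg
Atp5b: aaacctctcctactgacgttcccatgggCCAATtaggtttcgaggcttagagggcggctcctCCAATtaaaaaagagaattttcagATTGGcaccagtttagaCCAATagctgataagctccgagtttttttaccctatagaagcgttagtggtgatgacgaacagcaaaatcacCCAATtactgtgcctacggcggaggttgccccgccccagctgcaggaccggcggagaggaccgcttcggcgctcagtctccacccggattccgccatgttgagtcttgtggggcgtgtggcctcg
Sdhaf4: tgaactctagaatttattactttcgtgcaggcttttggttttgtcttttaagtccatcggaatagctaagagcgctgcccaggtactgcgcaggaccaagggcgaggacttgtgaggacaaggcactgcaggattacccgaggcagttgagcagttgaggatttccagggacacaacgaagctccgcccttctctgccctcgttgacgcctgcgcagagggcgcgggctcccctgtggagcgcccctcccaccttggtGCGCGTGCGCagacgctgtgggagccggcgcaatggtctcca

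The mitochondrial genome packs its genes so tightly that some share bases, which bears on the values of mt-Atp8 and mt-Nd4l. The last 43 bases of mt-Atp8 are the first of mt-Atp6 (chrM:7927-7969, plus strand), shown with the mt-Atp6 start codon in the leading position. The mt-Nd4l and mt-Nd4 genes share 7 bases (chrM:10167-10173). Each pair is made as a single bicistronic transcript, so the split of UMIs within a pair is uncertain. mt-Nd6 is the only member encoded on the minus strand of the mitochondrial genome and overlaps mt-Nd5 at its end.
mt-Atp8/mt-Atp6 overlap: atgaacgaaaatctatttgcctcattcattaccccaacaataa

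Summed over its 98 members, the nuclear-encoded set was highest in trigeminal-like cells, at 9166 CPM in library 1 and 11963 in library 2. Noradrenergic-like cells followed with 6791 and 6770.3 CPM. No other class exceeded 4492 CPM in either library, so both classes of large neurons lay above all others. Inhibitory-like cells held 4276 and 4029 CPM, excitatory-like cells 4492 and 3332, unnamed neurons 3333 and 3808, and granule-like cells 2674 and 2960.4. The non-neuronal classes were closer together, with 2492 and 2881 CPM in oligodendrocyte-like, 2296 and 2553 in precursor-like, 1997 and 2619.6 in astrocyte-like, 2101 and 2512 in ependymal-like, and 1667 and 2368 in vascular or blood-like cells. Exact 95% Poisson intervals, which cover counting error only, ran from 8947 to 9389 and from 11693 to 12238 CPM in trigeminal-like cells. In the order of means, trigeminal-like cells were separated from noradrenergic-like cells, these from inhibitory-like cells, and unnamed neurons from granule-like cells. All other neighbours overlapped between their libraries. Among these, granule-like lay above oligodendrocyte-like cells in both libraries, these above precursor-like, and ependymal-like above vascular or blood-like cells.

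Summed over its 13 members, the mitochondrial-encoded set took another order. Trigeminal-like (45652 and 83861 CPM), noradrenergic-like (44826 and 78987) and ependymal-like cells (46919 and 76745) were highest, and their values overlapped. Oligodendrocyte-like cells had 39586 and 64799.5 CPM, inhibitory-like 41797 and 51814, astrocyte-like 23341 and 56759, and unnamed neurons 25949.6 and 44468. Excitatory-like cells had 25058 and 40063 CPM, precursor-like 16686 and 41454, vascular or blood-like 23892 and 33742, and granule-like 17421 and 34519. No class was separated from the next in this order. Within both libraries trigeminal-like lay above noradrenergic-like cells, ependymal-like above oligodendrocyte-like cells and unnamed neurons above excitatory-like cells. The other neighbours changed order between libraries. The nuclear-encoded sum differed 5.50-fold (library 1) and 5.05-fold (library 2) between the highest and the lowest class, and the mitochondrial-encoded sum 2.81-fold and 2.49-fold.

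**Figure D1:**
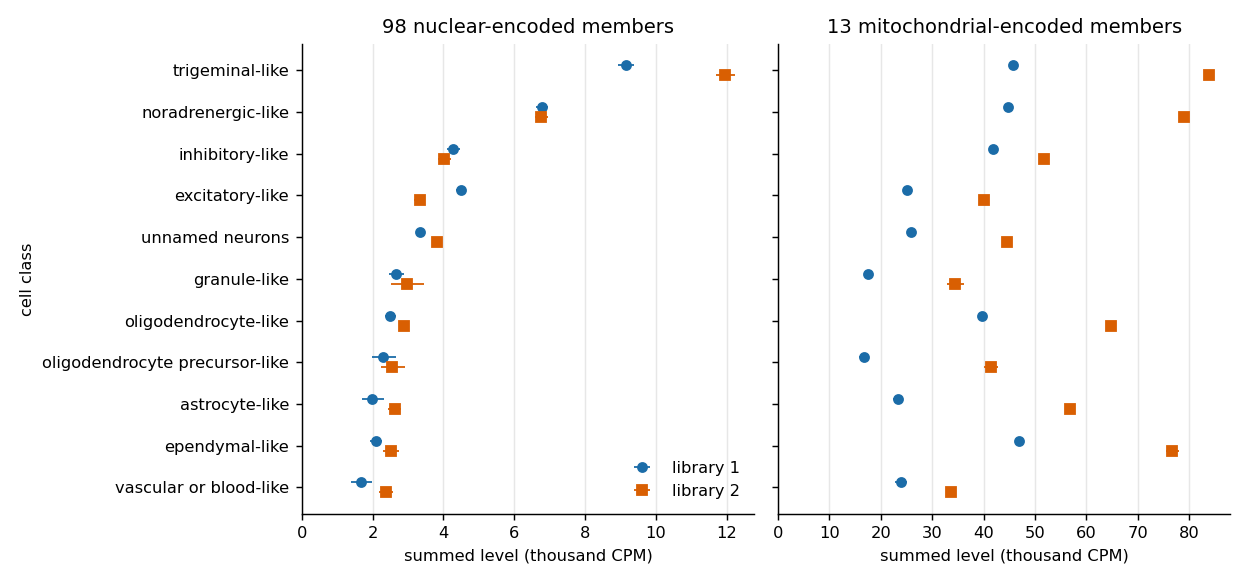
Summed CPM of the nuclear-encoded set (98 genes) and of the mitochondrial-encoded set (13 genes) in each class, with 1 point for each library and exact 95% Poisson intervals. Trigeminal-like cells reach 9166 and 11963 CPM of the nuclear-encoded set, and all mitochondrial-encoded sums are higher in library 2.

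The ratio of mitochondrial- to nuclear-encoded UMIs therefore put the classes in yet another order. It was highest in ependymal-like cells (22.3 and 30.6), followed by oligodendrocyte-like (15.9 and 22.5), astrocyte-like (11.7 and 21.7) and vascular or blood-like cells (14.3 and 14.2). It was lowest in trigeminal-like cells (4.98 and 7.01). Between these lay precursor-like cells (7.27 and 16.2), inhibitory-like (9.78 and 12.9), unnamed (7.78 and 11.7), noradrenergic-like (6.60 and 11.7), granule-like (6.51 and 11.7) and excitatory-like neurons (5.58 and 12.02). All neighbours in this order overlapped, whereas ependymal-like and trigeminal-like cells at its ends were 4.48-fold (library 1) and 4.36-fold (library 2) apart. Within both libraries ependymal-like lay above oligodendrocyte-like and these above astrocyte-like cells, and excitatory-like above trigeminal-like cells. Inhibitory-like lay above unnamed neurons in both, and these above noradrenergic-like and then granule-like cells, the last 2 steps by little in library 2. The other neighbours changed order between libraries.

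**Figure D2:**
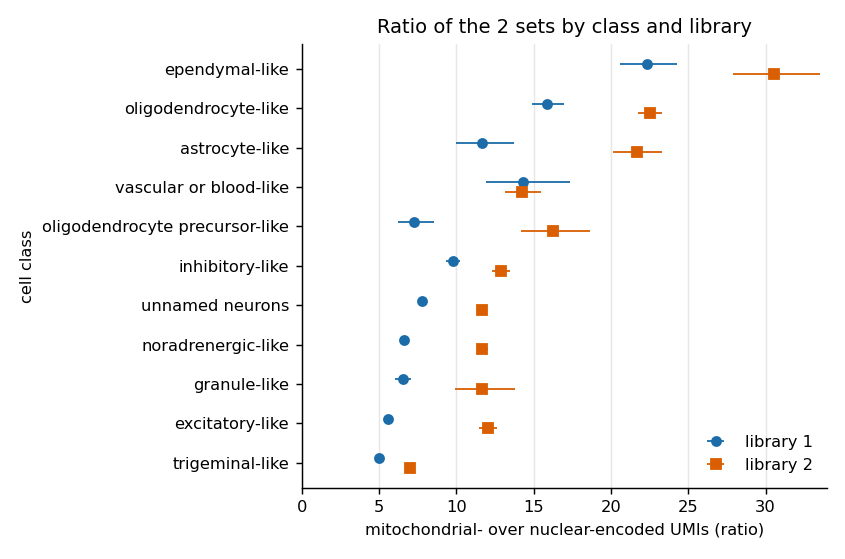
Ratio of mitochondrial-encoded to nuclear-encoded UMIs by class, with 1 point for each library and its exact 95% interval. Ependymal-like cells stand highest (22.3 and 30.6) and trigeminal-like cells lowest (4.98 and 7.01).

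Across the 11 classes the nuclear-encoded sum went with the median UMIs per cell (Pearson's r 0.878 in library 1 and 0.963 in library 2; Spearman's rho 0.845 and 0.855) and with the cytosolic ribosomal protein genes (r 0.851 and 0.783; rho 0.573 and 0.491). The mitochondrial- and nuclear-encoded sums went together less closely (r 0.548 and 0.640; rho 0.445 and 0.464). These are descriptions over classes that share a library, its depth and its total. Median depth was 83596.5 and 7653.5 UMIs in noradrenergic-like and 60464 and 10245.5 in trigeminal-like cells, against 5440 and 968.5 in astrocyte-like cells, and the part of depth in the nuclear-encoded levels was not tested.

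Library 2 gave higher mitochondrial-encoded levels in 11 of 11 classes, by 1.24-fold in inhibitory-like to 2.48-fold in precursor-like cells (median 1.71). All 13 mitochondrial-encoded members were higher in library 2 in noradrenergic-like cells. The nuclear-encoded sum was higher in library 2 in 8 of 11 classes, with ratios of 0.742 (excitatory-like) to 1.42 (vascular or blood-like) and a median of 1.14. Among nuclear-encoded members with at least 20 UMIs, 39 were higher and 49 lower in library 2 in noradrenergic-like cells, 63 and 22 in trigeminal-like cells, and 11 and 67 in excitatory-like cells. The mitochondrial-encoded sum was thus higher in library 2 in every class compared, and the nuclear-encoded sum was not. Cytosolic ribosomal protein genes were higher in library 2 in 11 classes (1.12-fold to 1.79-fold), the nuclear RNA Malat1 in 7, and median depth was 5.62 to 10.9 times higher in library 1. With 1 library on each side no test was possible, and preparation, depth and the cells captured cannot be told apart.

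The limit of 20% mitochondrial UMIs per cell acts on these same genes. Without it, 10 of 62 trigeminal-like cells of library 2 lay above the limit (16.1%), 7 of 86 noradrenergic-like (8.14%) and 11 of 688 unnamed neurons (1.60%). In library 1 these were 1 of 13 trigeminal-like cells (7.69%), 0 of 20 noradrenergic-like cells and 6 of 82 unnamed neurons (7.32%), so the order of the last 2 classes differed between libraries. Of the 7 noradrenergic-like cells above the limit in library 2, 7 had UMIs of Dbh and of Slc6a2 and 2 had UMIs of Th, genes of noradrenaline synthesis and reuptake. Trigeminal-like cells then reached 114188 CPM of the mitochondrial-encoded set and a ratio of 9.98 in library 2. Classes were rebuilt without the limit, so their cells changed beyond those above it. Noradrenergic-like cells of library 1 numbered 20 in place of 12, with 0 above the limit. Excitatory-like cells of library 1 numbered 20 in place of 31, also with 0 above it. Their nuclear-encoded sum was then 3659 CPM in place of 4492, so this class depends on the clustering.

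Neurons as a whole were compared with all non-neuronal cells, to ask which genome's share of the respiratory machinery was neuronal. The nuclear-encoded set was higher in neurons: 69 of the 90 members with enough counts were called higher and 0 lower (edgeR's quasi-likelihood test, Benjamini-Hochberg adjusted p under 0.05, as for every call below), where 48.9% of the 13489 genes tested were called, 25.5% in the higher direction. Over the 90 members the median log2 fold was 1.17, against 0.08 over all genes. The remaining 8 nuclear-encoded members had too few counts to enter. These sums weigh cells by their UMIs, so the deep noradrenergic-like and trigeminal-like cells count most per cell. Granule-like neurons, at 2674 and 2960 CPM of the nuclear-encoded set, lay little above oligodendrocyte-like cells (2492 and 2881). In complex I 32 of 47 members tested were higher, in complex II 4 of 7, in complex III 7 of 8, in complex IV 10 of 11 and in complex V 16 of 17, and of the assembly factors among these 4 of 11.

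By role, the core and catalytic subunits rose moderately. Ndufs1 and Ndufv1, which carry the electron entry sites of complex I, rose by 0.81 ± 0.25 and 1.04 ± 0.31 log2 units (SE), and Sdha, the flavoprotein of complex II, by 1.03 ± 0.23. Uqcrfs1, the Rieske iron-sulphur protein of complex III, rose by 1.34 ± 0.35, and the complex V subunits Atp5b and Atp5a1 by 1.35 ± 0.22 and 0.72 ± 0.21. Sdhb stood at 38.2 and 39.0 CPM in neurons against 24.4 and 38.6 in other cells, overlapped, and was not called.

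The 5 largest rises called were of Atp5g3, Atp5g1, Sdhd, Atp5mpl and Ndufaf8. Atp5g3, 1 of 3 genes for the proton-carrying c subunit of complex V, stood at 128 and 92.2 CPM in neurons against 23.4 and 22.65 in other cells (log2 fold 2.20 ± 0.25, adjusted p 3.96e-05 by edgeR). Its paralogue Atp5g1 stood at 61.7 and 74.3 CPM against 17.0 and 17.3 (1.99 ± 0.26, adjusted p 0.000112). In both genes every neuronal value lay above every other value, whereas the remaining paralogue Atp5g2 stood at 27.9 and 23.4 CPM against 20.2 and 16.9 and was not called. Sdhd, a membrane anchor of complex II, rose by 1.98 ± 0.54 from few counts (13.5 and 8.94 CPM against 2.13 and 2.89), Atp5mpl by 1.89 ± 0.28 and the complex I assembly factor Ndufaf8 by 1.80 ± 0.45.

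In the mitochondrial-encoded set 2 of 13 members were higher and 1 lower, with a median log2 fold of -0.08. Those were mt-Nd5 (0.43 ± 0.15; 1480.5 and 1987 CPM against 1082 and 1474) and mt-Nd1 (0.42 ± 0.16; 2273 and 3579 against 1494 and 3004), both of complex I, and mt-Atp6 of complex V (-0.51 ± 0.13; 4342 and 7537 against 6081 and 10741). The values of neurons and other cells overlapped in mt-Nd1 and mt-Atp6 and lay just apart in mt-Nd5, and library 2 was higher in both groups in all 3. DESeq2 called 34 nuclear-encoded and 0 mitochondrial-encoded members, and without the library as a block 0 mitochondrial-encoded members were called.

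Whole marker lists give the purity of these sums. The 10 oligodendrocyte markers summed to 294 and 421 CPM in neurons, with 0 of them at 0, and to 20531 and 16477 in other cells, and the 10 pan-neuronal markers to 5319.8 and 4644 CPM in neurons and 311 and 565 in other cells. The 13 genes of the dissociation response, immediate early genes such as Zfp36 and Ier2, summed to 1202 and 1177 CPM in neurons and 2346 and 2131 in other cells, with 0 higher and 9 lower of 13 tested. Their part in the result was not tested.

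Trigeminal-like cells were compared with all other neurons, and most of the nuclear-encoded set was higher in them. Of 89 members tested 71 were higher and 0 lower, where 35.0% of 11662 genes were called, 16.7% in the higher direction. The median log2 fold was 1.22 over the members and -0.06 over all genes. By complex, 35 of 46 members tested were higher in complex I, 2 of 7 in complex II, 7 of 8 in complex III, 11 of 11 in complex IV and 16 of 17 in complex V. Complex II had the smallest share of the 5 complexes, but 4 of its 8 members are assembly factors. Of its 4 subunits Sdhc (0.84 ± 0.25) and Sdhd (1.26 ± 0.44) were higher. Sdha stood at 114 and 101 CPM against 92.3 and 75.7, and Sdhb at 56.3 and 41.8 against 34.7 and 38.5. Of the assembly factors only Ndufaf5 was higher (1.26 ± 0.27), 1 of 11 tested.

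Complex IV subunits gave some of the largest values. Cox6a1, whose promoter is printed above, stood at 98.9 and 161 CPM in trigeminal-like cells against 31.1 and 29.7 in other neurons (2.05 ± 0.25, adjusted p 3.27e-15 by edgeR). Cox6c stood at 334 and 404 CPM against 108 and 105 (1.78 ± 0.22), and Cox5a at 144 and 141.5 against 50.8 and 33.4 (1.77 ± 0.24). In these 3 genes both trigeminal-like values exceeded both others. Cox4i1, the regulatory subunit, stood at 367 and 611 CPM against 131 and 168 (1.67 ± 0.22). Ndufa1, a small subunit of complex I on chromosome X, gave the largest fold of the members tested (2.07 ± 0.28; 74.2 and 70.8 CPM against 17.4 and 16.8; adjusted p 4.99e-12). In complex V, Atp5mpl rose by 1.92 ± 0.24, Atp5g3 by 1.58 ± 0.23 and Atp5b by 1.33 ± 0.22, from 143 and 126 to 298 and 391 CPM.

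Of the mitochondrial-encoded set 10 of 13 members were higher in trigeminal-like cells and 0 lower, with a median log2 fold of 0.61. The folds called ran from 0.51 ± 0.18 (mt-Co3) to 0.83 ± 0.20 (mt-Nd4l, 731 and 1002 CPM against 414 and 550.2). mt-Nd3, mt-Nd5 and mt-Atp8 were not called. The 8 noradrenergic markers summed to 89.3 and 65.9 CPM in trigeminal-like cells, with 2 of 8 at 0 in each library, and the 10 oligodendrocyte markers to 100.3 and 137, against 331 and 468 in other neurons. DESeq2 called 42 nuclear-encoded members, and without the library as a block 2 mitochondrial-encoded members were called.

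Among genes with at least 100 UMIs, 59 of 87 nuclear-encoded members (67.8%) had their highest level of the 10 named classes in trigeminal-like cells in both libraries, and 2 had it in noradrenergic-like cells. Over all 10201 such genes the shares were 7.22% and 8.43%. Of the 13 mitochondrial-encoded members 4 were highest in trigeminal-like, 3 in ependymal-like, 2 in oligodendrocyte-like and 1 in noradrenergic-like cells, and 3 differed between libraries. These counts use the same cells as the tests above.

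Noradrenergic-like cells, the LC neurons proper, were compared with all other neurons, a reference that includes trigeminal-like and granule-like cells. Of 90 nuclear-encoded members 25 were higher and 1 lower, where 30.9% of 11646 genes were called, 15.6% higher and 15.3% lower. The 26 calls in either direction are thus near the share over all genes, and only their direction was uneven. The median log2 fold was 0.37 over the 90 members tested and -0.02 over all genes. Complex I had 11 higher and 1 lower of 47, complex II 2 of 7 higher, complex III 4 of 8, complex IV 3 of 11 and complex V 5 of 17. Comparisons of noradrenergic-like and trigeminal-like cells with other neurons share most of their reference cells.

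The members that stood furthest apart were a paralogue and an assembly factor. Ndufa4l2 (chr10:127514967-127517154, plus strand), a paralogue of Ndufa4 known as a hypoxia-induced gene and as abundant in brain pericytes, stood at 19.2 and 17.9 CPM against 0 and 0.275 in other neurons (log2 fold 6.55 ± 0.79, adjusted p 6.99e-05 by edgeR). These values rest on 19 and 13 UMIs against 0 and 1. Sdhaf4 helps mature the flavoprotein Sdha and lies on the minus strand at chr1:23995939-24005656. Its level was 29.4 and 34.4 CPM, and 8.62 and 6.05 in other neurons (log2 fold 2.05 ± 0.34, adjusted p 0.00075). Both genes were higher in each library without overlap.

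**Figure D3:**
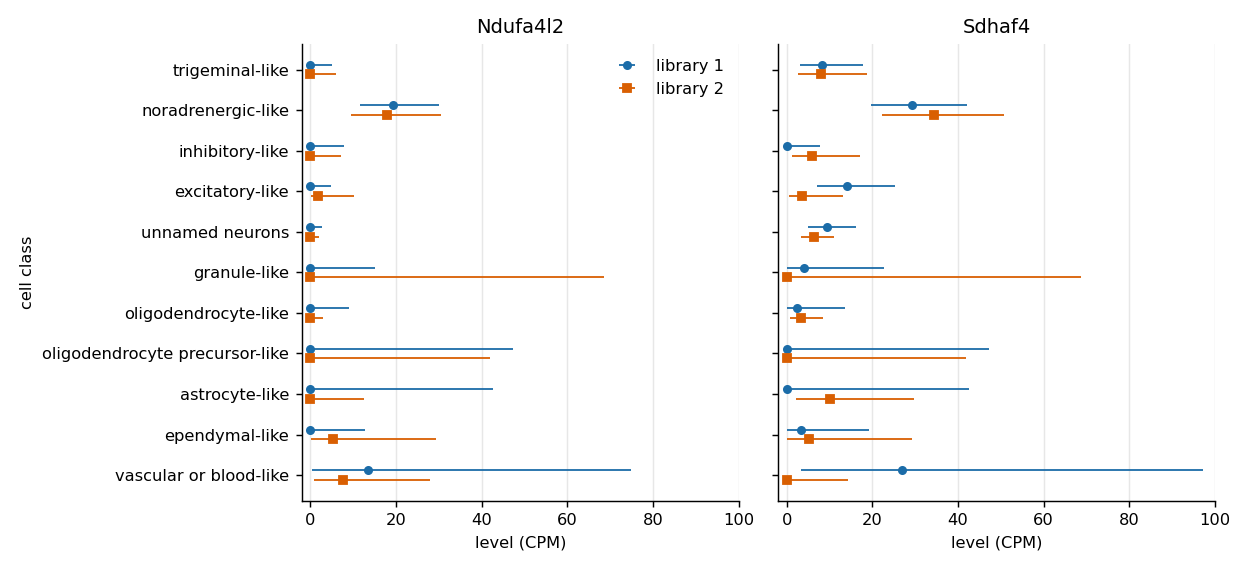
CPM of Ndufa4l2 and Sdhaf4 in each class, with 1 point for each library and exact 95% Poisson intervals. Ndufa4l2 stands at 19.2 and 17.9 CPM and Sdhaf4 at 29.4 and 34.4 CPM in noradrenergic-like cells.

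Of the 37 Ndufa4l2 UMIs in all cells, 32 (86.5%) were in noradrenergic-like cells, which held 14.3% of the UMIs of all genes. They came from 8 of 12 cells in library 1 (66.7%, exact 95% interval 34.9 to 90.1) and from 10 of 78 in library 2 (12.8%, 6.32 to 22.3), with at most 5 in a single cell. Oligodendrocyte-like cells had a UMI in 0 of 38 and 0 of 738 cells at medians of 9789.5 and 1432 UMIs, against 83596.5 and 7653.5 in noradrenergic-like cells. Thinned to 1000 UMIs per cell, 0 of 12 and 1 of 75 noradrenergic-like cells kept a UMI of the gene, so shares of cells were not read further. Vascular or blood-like cells had 1 and 2 UMIs (13.4 and 7.73 CPM), with exact 95% Poisson intervals of 0.34 to 74.9 and 0.936 to 27.9 CPM. These include the noradrenergic-like levels, so the counts do not separate these classes. In this class 8 of 9 mural markers reached 10 CPM, but the mural marker Rgs5 was found in only 6 of 10 and 26 of 198 cells. The last 32 bases of Ndufa4l2 (chr10:127517123-127517154), all exonic, overlap Shmt2 on the opposite strand, a mitochondrial enzyme of serine and glycine metabolism. Shmt2 was higher in noradrenergic-like cells too (40.5 and 31.7 CPM; log2 fold 2.81 ± 0.35, adjusted p 9.42e-05 by edgeR), and 8 cells of library 1 and 2 of library 2 had both. Without strand, their UMIs cannot be told apart in the shared bases.

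UMIs of Sdhaf4 came from 10 of the 12 noradrenergic-like cells of library 1 and 16 of the 78 of library 2. Other rises were smaller and spread over the complexes. Ndufv3 rose by 0.95 ± 0.20 (127.5 and 93.7 CPM against 51.4 and 59.95) and Ndufc1 by 0.93 ± 0.18 in complex I, Sdha by 0.58 ± 0.17 in complex II, and Uqcrfs1 by 0.93 ± 0.27 and Uqcr11 by 0.88 ± 0.17 in complex III. In complex IV Cox7a2 rose by 0.66 ± 0.21 and Cox8a by 0.65 ± 0.19, and in complex V Atp5g2 by 0.86 ± 0.25 and Atp5g3 by 0.49 ± 0.16. Atp5b stood at 214 and 209 CPM against 155 and 155 (adjusted p 0.0563 by edgeR) and was not called, although its values did not overlap. Ndufs4, an accessory subunit of complex I whose loss causes Leigh syndrome, was the member called lower (-0.67 ± 0.21; 41.5 and 39.9 CPM against 62.8 and 62.4; adjusted p 0.0312), and lost its call under DESeq2 (adjusted p 0.484) and without the library as a block (0.0559).

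Of the mitochondrial-encoded set 7 of 13 members were higher in noradrenergic-like cells and 0 lower (median log2 fold 0.50). mt-Co3 rose most, by 0.76 ± 0.12 (7539.9 and 15274 CPM against 4482 and 8402, adjusted p 0.000501 by edgeR), followed by mt-Nd6 (0.61 ± 0.17), mt-Co2 (0.61 ± 0.12), mt-Atp6 (0.53 ± 0.12), mt-Nd4, mt-Cytb and mt-Co1 (0.50 ± 0.12). In mt-Co3 each library put noradrenergic-like cells higher, while library 1 of these cells lay below library 2 of the others. Under DESeq2 4 nuclear-encoded and 6 mitochondrial-encoded members were called, and without the library as a block 12 and 0. Without the mitochondrial limit, which also changed the cells of the classes, 16 and 1 were called. With trigeminal-like and granule-like cells left out of the reference, a setting chosen after seeing the data, 52 nuclear-encoded members, all of them higher, and 11 mitochondrial-encoded members were called.

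Set directly against each other, the 2 classes of large neurons differed in the nuclear-encoded set, while no mitochondrial-encoded member was called among cells within the mitochondrial limit. Of 88 nuclear-encoded members tested 2 were higher in noradrenergic-like cells and 34 lower, where 32.7% of 8532 genes were called, 16.6% higher and 16.2% lower. Members tested had a median log2 fold of -0.63, against 0.01 over all genes. Higher were Ndufa4l2, with no UMI in trigeminal-like cells and thus at least 8.40-fold higher against a floor of 3 counts over both libraries (adjusted p 0.00132 by edgeR), and Sdhaf4 (1.89 ± 0.48; 29.4 and 34.4 CPM against 8.25 and 8.04). Of complex I 14 members of 45 were lower, of complex III 3 of 8, of complex IV 7 of 11 and of complex V 10 of 17, against 0 of 7 in complex II. Among all 8 members of complex II 4 are assembly factors.

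The largest falls were Ndufaf5, an assembly factor that modifies a complex I core subunit (-1.61 ± 0.33; 23.3 and 20.7 CPM against 67.3 and 62.7), Atp5f1 (-1.44 ± 0.32), Cox5a (-1.36 ± 0.27), Cox6c (-1.36 ± 0.23; 139 and 158 CPM against 334 and 404) and Ndufb8 (-1.22 ± 0.31). Both noradrenergic-like values of Ndufaf5 and Cox6c lay below both trigeminal-like values. Of the 13 mitochondrial-encoded members 0 were called by edgeR and 0 by DESeq2, with 0 higher and 1 lower at an unadjusted p under 0.05 (median log2 fold -0.15). The limit of 20% mitochondrial UMIs took a larger share of trigeminal-like than of noradrenergic-like cells in both libraries. Without it, and with classes rebuilt, 2 members were called, both lower in noradrenergic-like cells. Summed levels were then 41763 and 87157 CPM in noradrenergic-like and 47588 and 114188 in trigeminal-like cells. DESeq2 called 5 nuclear-encoded members, 1 higher and 4 lower, and did not call Sdhaf4 (adjusted p 0.357).

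Granule-like cells, small neurons of the cerebellum, were at the low end of the neurons. Of 89 nuclear-encoded members tested 0 were higher and 11 lower than in other neurons, where 10.8% of 11297 genes were called, 4.62% in the higher and 6.21% in the lower direction. The median log2 fold was -0.99 over the members and -0.27 over all genes. Cox4i1 stood at 61.5 and 37.2 CPM against 174 and 233 (-1.71 ± 0.44), and Atp5g3 at 41.0 and 18.6 against 132 and 93.1 (-1.70 ± 0.51), below the other neurons in both libraries. The largest folds called in the nuclear-encoded set, of Ndufa5 (-2.88 ± 0.88) and Atp5j2 (-2.46 ± 0.78), rest on 2 and 3 UMIs in granule-like cells. Of the mitochondrial-encoded set mt-Nd6 alone was called, lower at 28.7 and 0 CPM against 76.9 and 95.2, from 7 and 0 UMIs. The 10 oligodendrocyte markers summed to 1427 and 987 CPM in granule-like cells against 231 and 414 in other neurons, and their part was not tested. DESeq2 and removal of 2 times the doublets each called 0 members, and without the library as a block 21 nuclear-encoded members were called.

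Inhibitory-like and excitatory-like neurons differed in the mitochondrial-encoded set. Of 13 members 6 were higher in inhibitory-like cells and 0 lower, where 5.07% of 7212 genes were called, 2.37% higher and 2.70% lower. mt-Atp6 stood at 5732 and 6882 CPM against 3001 and 4931 (0.72 ± 0.17, adjusted p 0.00579 by edgeR), followed by mt-Co1 (0.61 ± 0.16), mt-Nd2 (0.59 ± 0.17), mt-Co2, mt-Nd4 and mt-Nd1. Both inhibitory-like values of mt-Atp6 lay above both excitatory-like values. Of 73 nuclear-encoded members 0 were called by edgeR and 0 by DESeq2, with 4 higher and 0 lower at an unadjusted p under 0.05. The median log2 fold was 0.57 over the mitochondrial-encoded and 0.12 over the nuclear-encoded members tested, and -0.0025 over all genes. The 6 calls rest on the test used: DESeq2, a fit without the library as a block and a single fit over all classes each called 0 mitochondrial-encoded members. The 8 noradrenergic markers summed to 289 and 127 CPM in excitatory-like cells, with 6 and 4 of them at 10 CPM or more. In inhibitory-like cells they summed to 46.7 and 102 CPM, with 1 and 3 at that level, and their part was not tested.

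Ependymal-like cells are the ciliated cells of the ventricle wall. Of 13 mitochondrial-encoded members 6 were higher than in other non-neuronal cells and 1 lower, where 42.1% of 7232 genes were called, 23.3% higher and 18.7% lower, so the 7 calls in either direction are not far above the share over all genes. The complex I gene mt-Nd6 was measured at 187 and 152 CPM against 55.3 and 64.7 (1.52 ± 0.29, adjusted p 0.00205 by edgeR). mt-Nd4 (0.77 ± 0.15), mt-Cytb (0.68 ± 0.15), mt-Co1 (0.65 ± 0.13), mt-Atp6 (0.58 ± 0.13) and mt-Co3 (0.49 ± 0.14) were also higher, and mt-Nd3 was lower (-0.62 ± 0.20; 525 and 977 CPM against 875 and 1454). mt-Nd3 and mt-Nd4, which lie near each other in the genome, were thus called in opposite directions in the same cells. Of 51 nuclear-encoded members 0 were called by edgeR and 0 by DESeq2, with 3 higher and 2 lower at an unadjusted p under 0.05 (median log2 fold -0.16, against -0.03 over all genes). Without the library as a block 1 mitochondrial-encoded member was called.

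Vascular or blood-like cells were lower in most of the mitochondrial-encoded set than all other non-neuronal cells pooled. Class by class, their summed level in library 1 (23892 CPM) lay above that of astrocyte-like (23341) and precursor-like cells (16686). In library 2 it was the lowest of the classes compared (33742). Of 13 mitochondrial-encoded members 0 were higher and 8 lower than in other non-neuronal cells, where 32.0% of 7548 genes were called, 17.4% lower. mt-Co3 stood at 2918 and 4613 CPM against 5575 and 10558 (-1.15 ± 0.28, adjusted p 0.000289 by edgeR), both below both other values, and mt-Nd4 at 2057 and 2523 against 3795 and 5318 (-1.07 ± 0.29). Over the set the median log2 fold was -0.83, against -0.18 over all genes. Of 58 nuclear-encoded members 2 were lower, Atp5c1 and Ndufa3, each from 1 and 2 UMIs. The 5 erythroid genes summed to 74000.4 CPM in this class in library 1, with 0 of 5 at 0, and to 0 CPM in library 2, with 5 of 5 at 0, and the 13 dissociation genes to 6440.1 and 4350.5 CPM against 1995 and 1814 in other non-neuronal cells. Their part in the result was not tested. DESeq2 called 5 mitochondrial-encoded and 0 nuclear-encoded members, and without the library as a block 1 mitochondrial-encoded member was called.

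Between oligodendrocyte-like and astrocyte-like cells few members were called. Of 39 nuclear-encoded members tested 3 were higher in oligodendrocyte-like cells and 2 lower, where 35.7% of 5519 genes were called, 17.6% higher and 18.1% lower. Ndufs5 (2.26 ± 0.65), Atp5k (1.41 ± 0.45) and Cox6c (1.27 ± 0.38) were higher, and Ndufv2 (-1.70 ± 0.54) was lower. Ndufaf6, an assembly factor of complex I, stood at 2.45 and 3.30 CPM in oligodendrocyte-like cells against 57.7 and 43.9 in astrocyte-like cells (-3.72 ± 0.72, adjusted p 0.00462 by edgeR), from 1 and 4 UMIs against 5 and 13. Its values did not overlap. Of the mitochondrial-encoded set 0 members were called by edgeR and 0 by DESeq2, with 2 higher and 0 lower at an unadjusted p under 0.05 (median log2 fold 0.63, against 0.23 over the nuclear-encoded members tested and 0.08 over all genes).

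**Figure D4:**
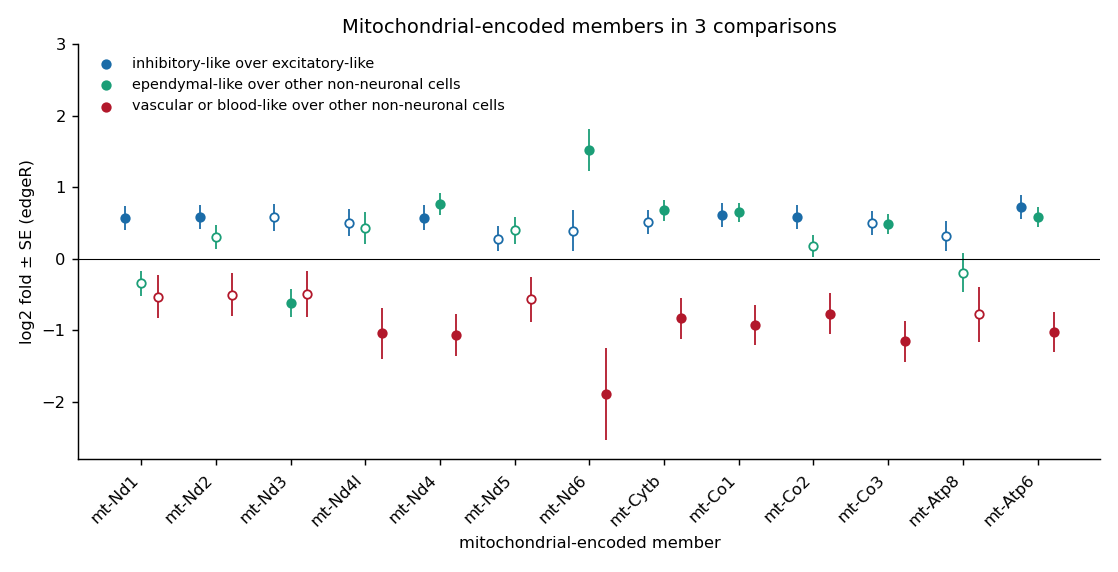
Log2 folds with SE of the 13 mitochondrial-encoded members in inhibitory-like against excitatory-like neurons and in ependymal-like and vascular or blood-like cells against other non-neuronal cells. Filled points passed an adjusted p of 0.05 and open points did not. mt-Nd6 gives the largest fold in ependymal-like cells (1.52) and the largest fall in vascular or blood-like cells (-1.89). The fall rests on 2 and 6 UMIs in vascular or blood-like cells, against a reference that includes the ependymal-like cells.

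The make-up of the mitochondrial-encoded sum was similar in most classes, with mt-Co1 the largest part at 18.6 to 22.8% in library 1 and 18.8 to 21.6% in library 2. Ependymal-like cells stood at the edge for several genes in both libraries. They had the lowest share of mt-Nd1 (2.50 and 3.27%) and of mt-Nd3 (1.12 and 1.27%) and the highest share of mt-Atp6 (16.9 and 19.1%) and of mt-Nd6 (0.398 and 0.199%). Noradrenergic-like cells had the highest share of mt-Co3 (16.8 and 19.3%). Shares are of UMIs primed at poly(A), so they compare a gene between classes and not genes with each other. The share of mt-Nd6 is less certain even between classes. It overlaps mt-Nd5 on the other strand, and whether counting used the strand is not given.

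Tissue isoforms of complex IV were scarce next to their common forms. Cox4i2, the oxygen-responsive form of subunit 4, had 2 and 2 UMIs in vascular or blood-like cells (26.9 and 7.73 CPM) and 0 in noradrenergic-like and trigeminal-like cells, where Cox4i1 stood at 203 and 258 and at 367 and 611 CPM. The muscle forms Cox7a1 (3 and 0 UMIs in noradrenergic-like, 1 and 1 in trigeminal-like cells) and Cox6a2 (1 and 2 in trigeminal-like cells) were at or under the floor of 3 counts, and no fold is given. Of the 2 forms of Ndufa4, named for complex I but now placed in complex IV, Ndufa4 itself stood at 176 and 112 CPM in noradrenergic-like and 284 and 233 in trigeminal-like cells.

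Genes around the respiratory chain, in lists fixed with earlier results of these data known, are described by their counts. In neurons against other cells 48.9% of all genes tested were called, 25.5% higher and 23.4% lower. In neurons against other cells 16 of 20 glycolysis genes were higher and 3 lower (Eno2, neuronal enolase, at 3.35 ± 0.29 and the glucose transporter Slc2a1 at -3.28 ± 0.26), as were 10 and 1 of 22 genes of the tricarboxylic acid cycle (Mdh1 at 2.31 ± 0.25), 7 and 1 of 22 electron carriers and ATP exchange genes (the mitochondrial creatine kinase Ckmt1 at 3.37 ± 0.37) and 5 and 1 of 12 antioxidant genes (Sod2 at 1.92 ± 0.23). Of 15 regulators of mitochondrial biogenesis 3 were higher and 6 lower. Cytosolic ribosomal protein genes were higher in 34 of 82 and mitochondrial ribosomal protein genes in 15 of 78, with 0 and 1 lower. Counted in either direction, the cycle, the carriers, the antioxidants and both kinds of ribosomal protein genes lay near or below the share over all genes.

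In trigeminal-like cells against other neurons 13 of 22 tricarboxylic acid cycle genes, 10 of 22 carriers and ATP exchange genes, 9 of 20 glycolysis genes and 6 of 12 antioxidant genes were higher and 0 lower, against 16.7% of all genes higher. Suclg1 of the cycle stood at 1.44 ± 0.25, the ATP exchanger Slc25a5 at 1.94 ± 0.31 and Prdx5, a mitochondrial peroxidase, at 1.44 ± 0.25 log2 units. In noradrenergic-like cells 10 of 20 glycolysis genes were higher and 1 lower (Ldha 1.57 ± 0.22, Slc2a1 1.44 ± 0.40), and 4 of 12 antioxidant genes were higher, against 15.6% of all genes, while of the cycle 2 were higher and 1 lower of 22. Of 14 biogenesis regulators 7 were lower and 0 higher in noradrenergic-like cells, and 3 were higher and 2 lower in trigeminal-like cells. Directly against trigeminal-like cells 4 of 9 were lower in noradrenergic-like cells and 0 higher. Ppargc1a, the coactivator PGC-1 alpha that drives nuclear respiratory genes, was lower in noradrenergic-like cells (-3.14 ± 0.28, adjusted p 7.43e-06 by edgeR) and higher in trigeminal-like cells (1.56 ± 0.24, adjusted p 6.01e-10) than in other neurons. Set against each other directly, noradrenergic-like cells had the lower level (-4.05 ± 0.34, adjusted p 9.03e-08 by edgeR). Of 16 genes that copy and express the mitochondrial genome 0 were called in noradrenergic-like cells. Cytosolic ribosomal protein genes were higher in 48 of 82 in noradrenergic-like and 67 of 82 in trigeminal-like cells, with 0 lower in each.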

How the data were processed

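Poly(A) RNA was counted in 2 droplet libraries of the LC. The deposited matrices hold counts, unnormalized whole numbers of UMIs for each gene in each barcode, made with Cell Ranger 6.1.2 per the file headers. The submitters' processing notes list GRCm38 (mm10), Seurat and Cell Ranger 7.0, without their roles. Whether intronic reads were counted is not given in the sources used here.

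Cells needed 300 detected genes or more and no more than 20% mitochondrial UMIs, and the highest Scrublet scores were removed at 0.8% per 1000 barcodes (1 and 63 cells). Clusters came from 166 of 167 marker genes in 25 lists, with counts scaled to 10000 per cell and log-transformed, 20 principal components, 15 neighbours and Leiden resolution 1 (scanpy 1.11.5, igraph 0.11.9, Python 3.11.15). No integration of the libraries was done. Clusters counted as neurons from 1700 CPM of 10 pan-neuronal markers upward, a threshold set after seeing the clusters. A name needed 3 markers of its list at 10 CPM and 2 log2 units above the median cluster, and a lead of 1 log2 unit over the next list. Excitatory-like cells rest on the minimum of 3 markers, and names rebuilt in this way can differ from those of the study.

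UMIs were summed per class and library, and the 4 sums of each of 9 comparisons were tested with edgeR 4.0.16 (limma 3.58.1, R 4.3.3): quasi-likelihood test, two-sided, TMM, filterByExpr, the library as a block, and Benjamini-Hochberg adjustment over all genes tested at 0.05. The fit leaves 1 residual degree of freedom. The pairing comes from the libraries themselves, because each library held both classes. Log2 folds are given with SE from the same fit. Where a class had no UMI of a gene, a bound was set from 3 counts in the sum of both libraries. Two-sided permutation of 2 against 2 sums cannot go below 0.333. A trial of the test on simulated data is not reported here, so it says nothing of the test's error rate in these data.

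Members, gene lists and class names were chosen with earlier results of these data known. Genes named are the mitochondrial-encoded members, the isoform groups, a core of each complex, the 5 largest called folds in each direction of a comparison, and at most 2 called genes per list. Shmt2, the members compared by values only, and further called members were named after their values were seen. Alternatives were DESeq2 1.42.0, RLE size factors, no low-count filter, no block, a single fit over all classes, other limits on mitochondrial UMIs, detected genes and doublets, Leiden resolution 2, mitochondrial genes left out, and each library left out. Neurons from 2300 CPM, and other neurons without trigeminal-like and granule-like cells, were added after seeing the data. Intervals and floors cover counting error only. Positions and overlaps come from GENCODE M21 (GRCm38) and promoters from RefSeq (GRCm38.p6). Reads of near-identical gene copies could have been split by the counting, which leaves such members uncertain.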

Additional observations from a re-analysis of the deposited data

How the results depend on the processing

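Of 448 values of 60 results recomputed under the alternatives, 354 were labelled the same and 94 were not. A count of calls was the same if it stayed within a fixed factor of the reported count. A level or ratio was the same if it stayed within the spread between libraries. Reversal of direction was not looked for among these 448 values. Of the 125 named folds none changed sign under any alternative run. All of them had been called in the reported fit and were refitted on the same libraries, so a change of sign was unlikely from the start. Not every alternative covered all of them. With mitochondrial genes left out 83 were refitted, and in the single fit over all classes 19 kept and 6 lost their call. Under DESeq2 66 lost their call, and 47 did without the library as a block. Leaving out library 1 or library 2 is not counted among these: it leaves no residual degrees of freedom and so gives no call, and of 2 values either one lies within 1 SD of their mean, so it says nothing of the levels' stability. Depth limits the scarce members and the small classes most: library 2 gave medians of 897.5 to 10245.5 UMIs per cell in the classes compared. Classes were rebuilt for the other limits on mitochondrial UMIs, detected genes and doublets, so the cells in them could change as well. The causes of the shifts below were not tested.

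The tool mattered most. DESeq2 called 3873 genes in neurons against non-neuronal cells in place of 6590, 1231 in noradrenergic-like against other neurons (3599), 1626 in trigeminal-like against other neurons (4077), 1144 in noradrenergic-like against trigeminal-like cells (2793), 465 in granule-like against other neurons (1224), 78 in inhibitory-like against excitatory-like (366), 1067 in oligodendrocyte-like against astrocyte-like (1970), 1585 in ependymal-like (3042) and 1128 in vascular or blood-like against other non-neuronal cells (2416). In the same order its nuclear-encoded calls moved to 34, 4, 42, 5 and 0 in the first 5 comparisons, to 1 in oligodendrocyte-like against astrocyte-like cells and to 0 in vascular or blood-like cells. Its mitochondrial-encoded calls moved to 0 in neurons, granule-like and inhibitory-like cells and to 5 in vascular or blood-like cells. Without the replicate block, where the library is ignored as a pairing, the mitochondrial-encoded calls were 0 in neurons, 0 in noradrenergic-like, 2 in trigeminal-like, 4 in granule-like, 0 in inhibitory-like, 1 in ependymal-like and 1 in vascular or blood-like cells, the nuclear-encoded calls were 12 in noradrenergic-like, 21 in granule-like and 4 in ependymal-like cells, and 181 genes were called in inhibitory-like cells. The block moved no other count by over 1.5 times.

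With RLE size factors the mitochondrial-encoded calls were 1 in neurons, 2 in granule-like, 2 in inhibitory-like and 2 in oligodendrocyte-like cells, and the nuclear-encoded calls 8 in oligodendrocyte-like and 2 in ependymal-like cells. With no low-count filter they were 0 in neurons, 2 in granule-like, 2 in oligodendrocyte-like and 2 in ependymal-like cells for the mitochondrial-encoded set, and 9 in oligodendrocyte-like, 4 in ependymal-like and 1 in vascular or blood-like cells for the nuclear-encoded set. A single fit over all classes called 0 mitochondrial-encoded members in inhibitory-like cells and 14 nuclear-encoded and 3 mitochondrial-encoded members in oligodendrocyte-like cells. With mitochondrial genes left out of the totals 1 nuclear-encoded member was called in ependymal-like cells.

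With no limit on mitochondrial UMIs 16 nuclear-encoded and 1 mitochondrial-encoded members were called in noradrenergic-like against other neurons, 2 mitochondrial-encoded in noradrenergic-like against trigeminal-like cells, 4 in granule-like and 2 in oligodendrocyte-like cells, 2 nuclear-encoded and 10 mitochondrial-encoded in inhibitory-like cells, and 1 nuclear-encoded in vascular or blood-like cells. The mean ratio of the sets was then 7.63 in trigeminal-like cells (6.00 as reported) and 14.4 in vascular or blood-like cells (14.3). At most 10% mitochondrial UMIs gave 1 mitochondrial-encoded call in neurons, 0 in granule-like and 2 in oligodendrocyte-like cells and 1 nuclear-encoded call in vascular or blood-like cells. At least 500 detected genes gave 6 nuclear-encoded and 0 mitochondrial-encoded calls in granule-like cells, 9 and 4 in oligodendrocyte-like cells, 1 nuclear-encoded call in ependymal-like and 1 in vascular or blood-like cells, and a vascular ratio of 14.1.

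Removing 2 times the doublets gave 3 mitochondrial-encoded calls in noradrenergic-like cells, 56 genes, 0 nuclear-encoded and 0 mitochondrial-encoded members in granule-like cells, and 3 nuclear-encoded calls in inhibitory-like cells, and removing none gave 1 nuclear-encoded call in ependymal-like cells. Leiden resolution 2.0 gave 0 mitochondrial-encoded calls in granule-like, 10 in inhibitory-like and 4 in ependymal-like cells, and 1 nuclear-encoded call in ependymal-like cells. Neurons from 2300 CPM gave 1 mitochondrial-encoded call in neurons, 2 in granule-like cells, and 3 nuclear-encoded calls in ependymal-like and 1 in vascular or blood-like cells. Without trigeminal-like and granule-like cells in the reference, 52 nuclear-encoded and 11 mitochondrial-encoded members were called in noradrenergic-like cells.

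As a mean over cells in place of the summed class, the mean nuclear-encoded level was 3794 CPM in inhibitory-like (4152 as reported), 6506 in noradrenergic-like (6781), 8472 in trigeminal-like (10565) and 3214 in unnamed neurons (3571). With mitochondrial UMIs left out of the total it was 4356 in inhibitory-like and 7230.3 in noradrenergic-like cells, and with subunits only 3915 and 6490.3. The vascular ratio as a median over cells was 15.02.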

Other observations

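Lists around the respiratory chain were also counted in classes where few nuclear-encoded members were called. In ependymal-like cells, where 42.1% of all genes were called and 23.3% were higher, 5 of 9 regulators of mitochondrial biogenesis were higher than in other non-neuronal cells and 1 was lower, with the orphan receptor Esrrg at a log2 fold of 3.99 ± 0.30 (SE) and the mitochondrial deacetylase Sirt3 at 2.48 ± 0.60 (edgeR's quasi-likelihood test, adjusted p 4.84e-06 and 0.00778). Of 9 carriers and ATP exchange genes 3 were higher and 1 lower, about the share over all genes, with the electron transfer flavoprotein gene Etfa at 3.06 ± 0.31 and Coq4, of ubiquinone synthesis, at 3.15 ± 0.58. In vascular or blood-like cells Esrrg was lower (-2.65 ± 0.54) and Ppard higher (2.23 ± 0.42), and of 12 dissociation response genes 10 were higher and 0 lower, against 14.6% of all genes higher.

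Between oligodendrocyte-like and astrocyte-like cells 35.7% of all genes were called, 17.6% higher and 18.1% lower. Of 13 glycolysis genes tested 4 were lower in oligodendrocyte-like cells and 0 higher, near the share over all genes, among them Pfkm (-3.68 ± 0.69) and the astrocyte aldolase Aldoc (-3.36 ± 0.40), and of 8 biogenesis regulators 3 were lower and 2 higher, with Ppara at -4.99 ± 0.82 and Ppargc1a at -4.56 ± 0.51. Of 57 cytosolic ribosomal protein genes 15 were higher in oligodendrocyte-like cells and 0 lower. In granule-like cells, where 6.21% of all genes were lower, 20 of 82 cytosolic ribosomal protein genes were lower than in other neurons and 0 higher, 4 of 19 glycolysis genes were lower and 0 higher, and Ppargc1b (1.78 ± 0.36) was higher. In inhibitory-like cells 4 of 10 biogenesis regulators were higher than in excitatory-like cells and 0 lower, against 2.37% of all genes higher, with Esrrb at 3.65 ± 0.72 and Ppard at 1.18 ± 0.33.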
